A study of Rattus norvegicus with 6 samples.

Results

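The genes described here encode secreted inhibitors of Wnt signalling and 2 widely used transcriptional targets of that pathway. They were chosen by symbol: Sfrp1, Sfrp2, Sfrp4, Frzb, Dkk1, Dkk2, Dkk3, Wif1, Lgr5 and Axin2. Of these 10, 9 were found among the 22085 genes of the expression table, and all 9 passed the filter on low counts that left 15776 genes for testing. Dkk1 was not analysed here. The RNA came from cultured rat amniotic fluid cells, labelled as mesenchymal stem cells. The fluid was collected on embryonic day 18.5 from control pregnancies (3 libraries) and from a rat model of preeclampsia (3 libraries), a pregnancy disorder with maternal hypertension. Both groups were grown in medium with 10% fetal bovine serum and harvested at passage 4. How the disorder was induced, the strain, the age of the dams and the number of animals or fetuses behind each library are not given in the sources used here, so p-values measure the spread between these libraries.

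Wnt proteins are secreted lipid-modified ligands that bind Frizzled receptors and the co-receptors LRP5 and LRP6, which stabilises beta-catenin and lets it activate genes together with TCF and LEF factors. Secreted frizzled-related proteins (Sfrp1, Sfrp2, Sfrp4 and Frzb) carry a domain like that of Frizzled and bind Wnt ligands outside the cell, as does Wif1, while Dickkopf proteins such as Dkk2 act on the LRP co-receptors. Dkk3 is a divergent Dickkopf relative whose action on the pathway is less settled. Axin2, a scaffold of the beta-catenin destruction complex, is a feedback target, and Lgr5, a receptor for R-spondins, is a target that marks several kinds of stem cell. In mesenchymal cells this pathway is known for its part in the choice between bone, fat and cartilage fates.

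The sequence upstream of Axin2 is shown because this gene serves as the direct readout of beta-catenin with TCF and LEF factors. Of the 10 genes, 4 of those with values had an entry in the RefSeq promoter table (Sfrp2, Frzb, Wif1 and Axin2). The 250 bases before the annotated start of each were searched on both strands for the core word of TCF and LEF sites, read as CTTTG followed by AA, AT, TA or TT, and no match overlapped another. The window of Axin2 (GRCr8, chr10:94398535-94398784, plus strand) is printed 5′ to 3′ with matches in capitals.

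Axin2: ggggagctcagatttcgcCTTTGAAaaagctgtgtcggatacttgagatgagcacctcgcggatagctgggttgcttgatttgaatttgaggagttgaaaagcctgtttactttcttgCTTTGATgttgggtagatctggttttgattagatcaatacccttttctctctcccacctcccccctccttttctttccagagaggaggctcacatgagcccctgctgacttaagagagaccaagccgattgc

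Axin2 held CTTTGAA starting at position -232 and CTTTGAT starting at -132, counted from the start site. Of 27457 such windows in the table, 14.7% held at least 1 of these words and 1.65% at least 2. The windows of Sfrp2, Frzb and Wif1 held none of them, which says only that these letters are not in those 250 bases.

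Library size ranged from 48402185 to 59193961 counts. Where 3 values are given for a group, they are those of its libraries 1, 2 and 3 in that order. The stromal genes Thy1 and Vim were between 251 and 486 FPKM and between 341 and 576 FPKM (the authors' measure of level, in sequenced fragments normalised for transcript length and library depth). Pdgfra, Pdgfrb, Col1a1 and Col1a2, of the same list, were at 97.7 FPKM or more in every library. Its other genes, Nt5e and Eng, were lower and uneven, between 6.02 and 104 FPKM and between 3.72 and 44.5 FPKM. The summed FPKM of 7 epithelial markers was 4.11, 55.9 and 12.9 in the control libraries and 0.50, 1.58 and 1.66 in the preeclampsia libraries. Except in control library 1, most of it was Krt8 and Krt18, keratin genes at 37.4 and 17.2 FPKM in control library 2. In control library 1 the largest part was Krt19, at 2.23 FPKM, which was listed at 0 in 4 libraries. Epcam was listed at 0 in 5 libraries. The sum of 7 endothelial markers was between 0.73 and 2.93 FPKM in the control libraries and between 0.94 and 4.06 FPKM in the preeclampsia libraries, mainly from Kdr in the highest of each, with Pecam1 listed at 0 in 3 libraries. The summed FPKM of 12 macrophage and blood cell markers was 131, 103 and 18.7 in the control libraries and 23.2, 358 and 171 in the preeclampsia libraries. The summed FPKM of 10 genes of the G2 and M phases was 147, 199 and 81.5 in the control libraries and 391, 81.0 and 83.4 in the preeclampsia libraries. Neither edgeR nor DESeq2 called a gene of the blood cell or cell cycle list. Over all genes edgeR called 0 of 15776 and DESeq2 1.71% of 17665, so the absence of calls says little. The log2 fold change (preeclampsia over control) was above 0 in 11 of the 12 blood cell markers and in all 10 cell cycle genes.

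Across the 9 genes, Sfrp1 and Lgr5 were higher in the preeclampsia group, Dkk2 had a lower mean there, and the other 6 overlapped widely between the groups. No gene of the 9 was called by edgeR's quasi-likelihood test at an adjusted p under 0.05, where 0.0% of all tested genes were called; DESeq2 called 2, Sfrp1 and Lgr5, against 1.71% of 17665 genes in either direction and 0.725% in the higher direction. An unadjusted p under 0.05 was reached in edgeR by 2 of the 9 (22.2%), both higher, beside 9.19% of all tested genes in either direction and 4.13% in the higher direction. In the same 2 genes the control and preeclampsia libraries did not overlap in CPM (counts scaled to library size), beside 15.6% of all tested genes in either direction and 7.25% in the higher direction. Over the 9 genes 4 fold changes were above 0 and 5 below. Their median log2 fold change (preeclampsia over control) was -0.0033, against 0.014 over all tested genes.

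**Figure D1:**
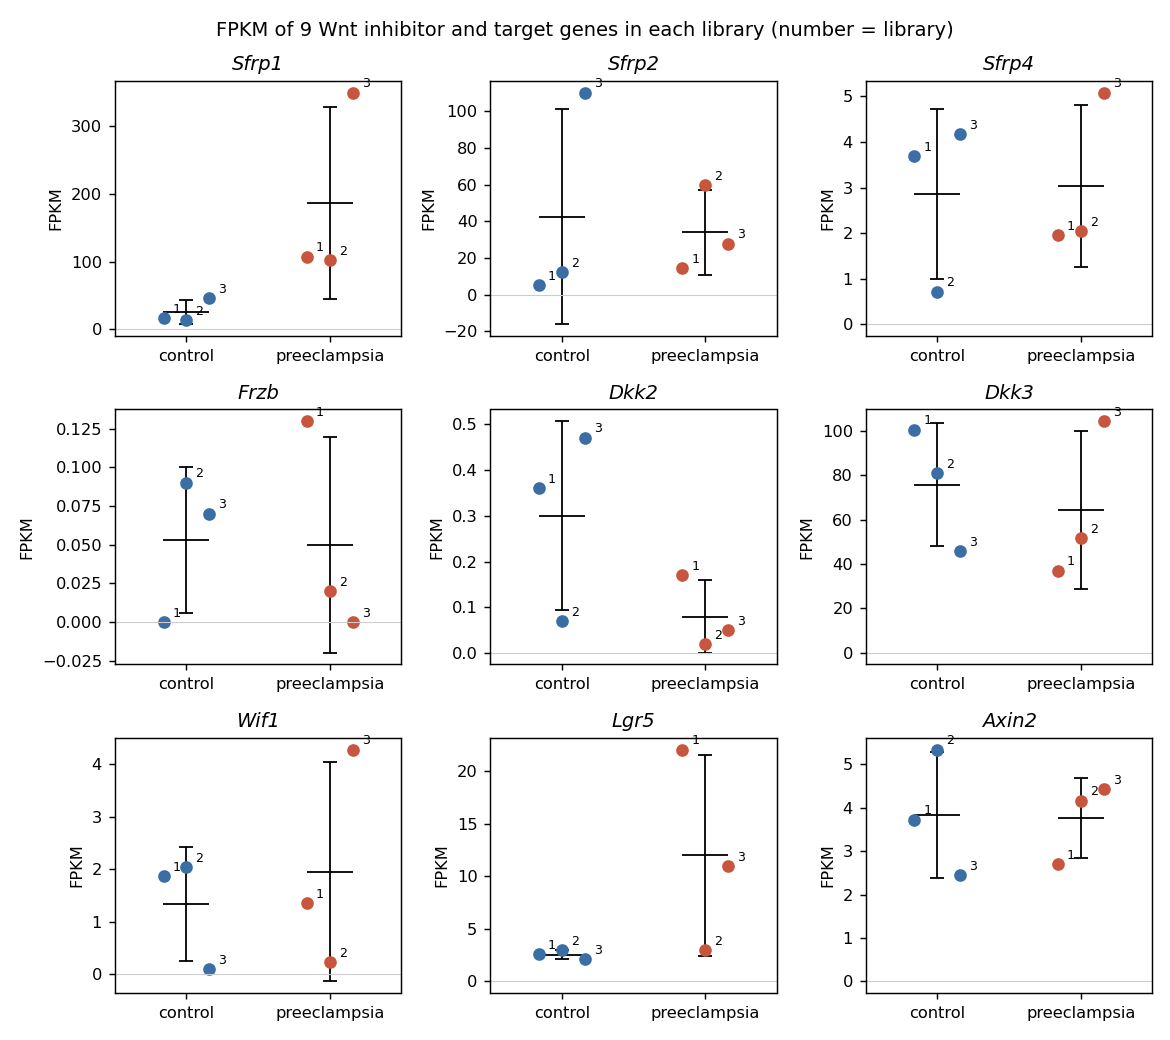
FPKM of each of the 9 genes (vertical axes, each from its own range) in control libraries (blue) and preeclampsia libraries (red), with the library number beside each point and the mean ± SD (n = 3) in black. Sfrp1 lies between 13.5 and 45.5 in the control libraries and between 102 and 350 in the preeclampsia libraries, while Sfrp2 has its highest value, 110, in control library 3.

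Sfrp1 had the largest fold change of the 9 genes and the highest mean FPKM over all 6 libraries, although Dkk3 and Sfrp2 had higher control means and Dkk3 was higher in mean CPM over all libraries. It binds Wnt ligands and can also bind Frizzled receptors. Its level was 15.9, 13.5 and 45.5 FPKM in the control libraries and 108, 102 and 350 FPKM in the preeclampsia libraries. Every preeclampsia library was above every control library, and the lowest preeclampsia value was 2.38 times the highest control value in CPM. The group means were 25.0 ± 17.8 and 187 ± 141 FPKM (SD, n = 3 each), a ratio of 7.47. The log2 fold change was 2.94 (SE 0.71), with an unadjusted p of 0.0053 and an adjusted p of 0.431 by edgeR, and an adjusted p of 0.00040 by DESeq2. By unadjusted p it ranked 193rd of the 15776 genes, and within each group it spanned about 3.4-fold from the lowest to the highest library. Leaving out 1 library at a time gave log2 fold changes between 2.103, without preeclampsia library 3, and 3.67, without control library 3. On the chromosome it spans chr16:68575763-68613905 on the minus strand, in the coordinates of the table, whose sequence names are those of mRatBN7.2.

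The 2 libraries lowest in macrophage and blood cell markers, control library 3 and preeclampsia library 1, differed in Sfrp1 in the same direction as the groups, at 45.5 and 108 FPKM. Without both of them the log2 fold change of Sfrp1 was 3.96 (SE 0.65). The libraries left in that fit still differed in the summed markers, at 131 and 103 FPKM in control and 358 and 171 FPKM in preeclampsia. Of the 12 macrophage and blood cell markers 11 had a log2 fold change above 0 and 1 below. The fit therefore cannot set those cells apart, and their part in the difference of Sfrp1 was not tested. Of the 8 stromal markers 6 had a log2 fold change above 0 and 2 below, and DESeq2 called 1, Pdgfra. This gene, a growth factor receptor of fibroblasts, was higher in each preeclampsia library, as Sfrp1 was. Pdgfra stood at 99.8, 97.7 and 116 FPKM in the control libraries and at 225, 236 and 411 FPKM in the preeclampsia libraries. Its log2 fold change was 1.50 (SE 0.27, adjusted p of 0.373 by edgeR and 0.00013 by DESeq2).

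Some markers of other cell types also differed with the group. Msln, the mesothelin gene, was at 1.06, 2.03 and 1.76 FPKM in the control libraries and 17.0, 11.8 and 20.9 FPKM in the preeclampsia libraries (log2 fold change 3.38, SE 0.31, adjusted p of 0.228 by edgeR and 2.8e-21 by DESeq2). Of the 5 mesothelial markers tested 2 were above and 3 below 0, and all but Msln overlapped between the groups in CPM. The sum of all 7 was between 5.39 and 15.3 FPKM in the control libraries and between 17.7 and 31.95 FPKM in the preeclampsia libraries. Most of that sum in each preeclampsia library was Msln. Actg2, which encodes an actin of smooth muscle, stood at 45.1, 101 and 23.9 FPKM in the control libraries and at 7.78, 8.40 and 12.7 FPKM in the preeclampsia libraries (log2 fold change -2.53, SE 0.55, adjusted p of 0.382 by edgeR and 0.00027 by DESeq2). Of the 7 smooth muscle markers 6 were below 0, with a sum of 2242, 658 and 1298 FPKM in the control libraries and 885, 635 and 619 FPKM in the preeclampsia libraries. DESeq2 called 2 of these 7, Actg2 and Myh11, and also the epithelial genes Krt8 and Krt18, all lower in the preeclampsia group. The part of these markers and of Pdgfra in the difference of Sfrp1 was not tested. In bulk RNA, more cells of a type and more RNA per cell cannot be told apart.

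Sfrp2, which binds Wnt ligands and is known from fibroblasts and bone marrow stromal cells, varied more within the control group than between the groups. It stood at 5.10, 12.2 and 110 FPKM in the control libraries and at 14.5, 59.7 and 27.8 FPKM in the preeclampsia libraries. Control library 3 had the highest value of all 6 and the other control libraries the lowest. The means were 42.5 ± 58.8 and 34.0 ± 23.2 FPKM, with a log2 fold change of -0.25 (SE 1.13, adjusted p of 0.966 by edgeR). Without control library 3 the direction turned, to 2.01 (SE 0.74, adjusted p of 0.488), and without control library 3 and preeclampsia library 1 it was 2.38 (SE 0.58, adjusted p of 0.157).

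Sfrp4, a family member also linked to phosphate and bone metabolism, was present at a low level in both groups. It stood at 3.69, 0.72 and 4.17 FPKM in the control libraries and at 1.96, 2.04 and 5.08 FPKM in the preeclampsia libraries. The groups overlapped, with a log2 fold change of 0.10 (SE 0.70, adjusted p of 0.977 by edgeR). Frzb, an inhibitor best known from cartilage, was near the limit of detection, with 0, 14 and 10 counts in the control libraries and 19, 4 and 0 in the preeclampsia libraries. Its fold change has an SE of 1.54 on the log2 scale, so no difference was detectable at these counts.

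Taken as a family, the 4 secreted frizzled-related genes summed to 24.7, 26.5 and 160 FPKM in the control libraries and to 124, 164 and 383 FPKM in the preeclampsia libraries. In FPKM the sums overlapped since Sfrp2 brought control library 3 above preeclampsia library 1. In CPM Sfrp1, Sfrp2 and Sfrp4 were at 98.6, 39.7 and 7.60 in control library 3. Sfrp1 alone was between 235 and 800 CPM in the preeclampsia libraries, so the sums did not overlap in that unit. Without Sfrp1 the other 3 genes summed to between 8.79 and 115 FPKM in the control libraries and between 16.6 and 61.7 FPKM in the preeclampsia libraries.

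Dkk3 was the highest of the 9 genes in FPKM in control libraries 1 and 2. It stood at 100, 80.8 and 45.7 FPKM in the control libraries and at 37.0, 51.6 and 104 FPKM in the preeclampsia libraries. Both groups spanned nearly the same range, with means of 75.7 ± 27.8 and 64.3 ± 35.4 FPKM and a log2 fold change of -0.22 (SE 0.47, adjusted p of 0.922 by edgeR). Dkk2, which binds LRP6 and can inhibit or weakly activate the pathway, was scarce, with 57, 11 and 76 counts in the control libraries and 29, 4 and 8 in the preeclampsia libraries. Control library 2 lay below preeclampsia library 1, and a preeclampsia library was the higher in 1 of the 9 pairings of a control with a preeclampsia library. The log2 fold change of Dkk2 was -1.85 (SE 0.99, adjusted p of 0.649 by edgeR), and it stayed below 0 in each of the 13 alternatives that could be fitted for this gene.

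Wif1, whose WIF domain binds Wnt ligands, differed by 22.7-fold within the control group and 18.6-fold within the preeclampsia group. It stood at 1.87, 2.04 and 0.09 FPKM in the control libraries and at 1.35, 0.23 and 4.28 FPKM in the preeclampsia libraries. The lowest libraries were control library 3 and preeclampsia library 2, the latter the highest in macrophage and blood cell markers and the former the lowest. The log2 fold change was 0.55 (SE 1.27, adjusted p of 0.927 by edgeR).

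**Figure D2:**
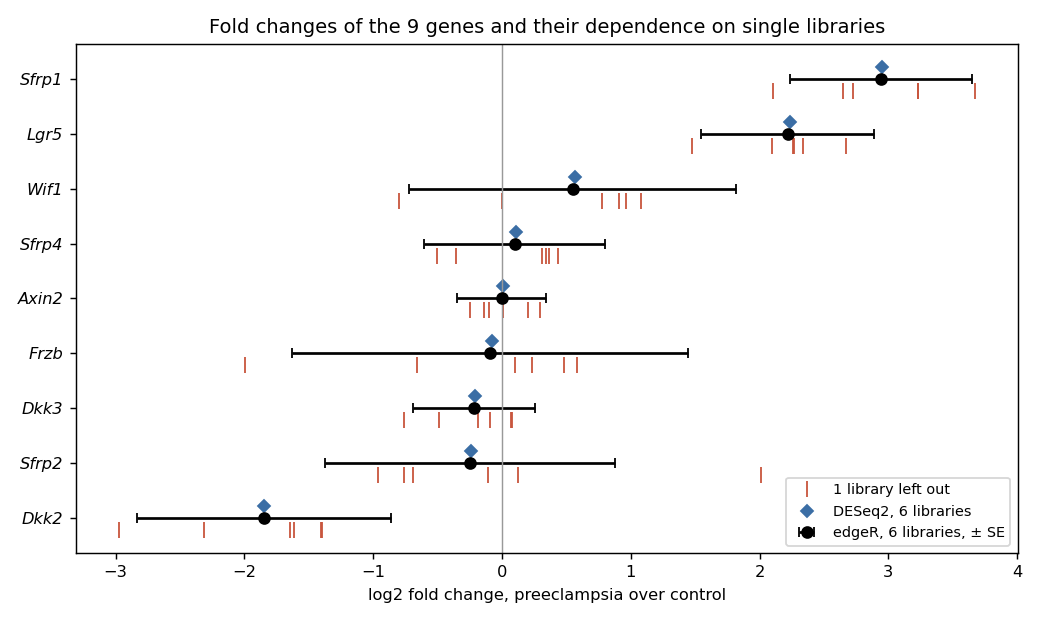
Log2 fold change of preeclampsia over control (horizontal axis) for each gene by edgeR with its SE (black), by DESeq2 (blue diamonds) and by edgeR with 1 library left out (red ticks). Sfrp1 and Lgr5 stay above 0 and Dkk2 below 0 in all of these fits, while the ticks of the other 6 genes fall on both sides of 0.

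The target genes Lgr5 and Axin2 had different patterns across the libraries. Lgr5 was flat across the control libraries, at 2.58, 2.95 and 2.11 FPKM, and uneven across the preeclampsia libraries, at 22.1, 2.95 and 10.9 FPKM. Preeclampsia libraries 1 and 3 were above all control libraries, and preeclampsia library 2 equalled control library 2 in FPKM and exceeded it by 1.06 times in CPM. The means were 2.55 ± 0.421 and 11.98 ± 9.59 FPKM, with a log2 fold change of 2.22 (SE 0.67), an unadjusted p of 0.015 and an adjusted p of 0.470 by edgeR. DESeq2 gave an adjusted p of 0.035. Preeclampsia library 1, with the highest Lgr5, also had the highest sum of G2 and M phase genes, and preeclampsia library 3, with the next highest Lgr5, had a sum close to that of control library 3; the part of this in the difference was not tested. Without preeclampsia library 1 the log2 fold change was 1.47 (SE 0.57), and without it and control library 3 it was 1.34 (SE 0.66). Lgr5 spans chr7:51087059-51221882 on the minus strand in the table's coordinates.

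Axin2 had nearly equal means, 3.84 ± 1.45 FPKM in the control group and 3.76 ± 0.931 FPKM in the preeclampsia group. Its values were 3.72, 5.34 and 2.45 FPKM in the control libraries and 2.70, 4.16 and 4.43 FPKM in the preeclampsia libraries. The log2 fold change was -0.0033 (SE 0.34, adjusted p of 0.998 by edgeR), and with 1 library left out it ran from -0.25 to 0.30. Axin2, whose upstream window holds a pair of the TCF and LEF words, was the least variable of the 9 genes over the 6 libraries, with an SD of 0.457 in log2 CPM, against 1.81 for Sfrp1 and 2.12 for Wif1. The SE of 0.34 leaves room for a modest change of Axin2 in either direction.

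The order of the levels in FPKM differed between the groups at its top. In the control group the means ran Dkk3, Sfrp2, Sfrp1, Axin2, Sfrp4, Lgr5, Wif1, Dkk2 and Frzb, and only the steps from Sfrp1 to Axin2 and from Lgr5 to Wif1 separated neighbours whose library values did not overlap. In the preeclampsia group they ran Sfrp1, Dkk3, Sfrp2, Lgr5, Axin2, Sfrp4, Wif1, Dkk2 and Frzb, with 1 step free of overlap, from Wif1 to Dkk2. Sfrp1 was the highest of the 9 in FPKM in each preeclampsia library and took rank 2 or 3 in the control libraries. In CPM, which is not divided by length, Dkk3 was the highest in each control library and in preeclampsia library 2, at 326 against 239 for Sfrp1. Sfrp1 made up 11.9%, 11.5% and 21.6% of the summed FPKM of the 9 genes in the control libraries and 57.4%, 45.9% and 69.0% in the preeclampsia libraries. The ratio of Sfrp1 to Dkk3 was 0.158, 0.167 and 0.996 in the control libraries and 2.91, 1.98 and 3.35 in the preeclampsia libraries, while the ratio of Sfrp1 to Sfrp2 overlapped, from 0.412 to 3.12 and from 1.71 to 12.6. These shares and ratios repeat the difference in Sfrp1 and are not further support for it.

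**Figure D3:**
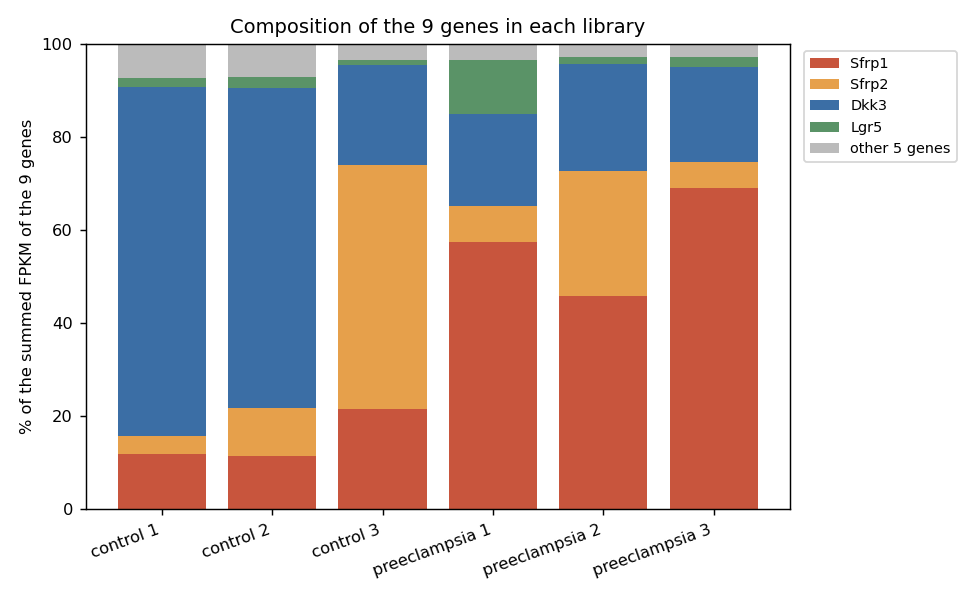
Share of each gene in the summed FPKM of the 9 genes (vertical axis, percent) for each library, with the 5 least abundant genes pooled in grey. Dkk3 makes up 75.2% and 68.7% in control libraries 1 and 2, Sfrp2 makes up 52.3% in control library 3, and Sfrp1 leads in the 3 preeclampsia libraries.

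The rest of the pathway was described with 9 lists of 101 genes, of which 94 had a row and 78 were tested. By edgeR 0 of the 78 were called, and 6 had an unadjusted p under 0.05 (7.69%, beside 9.19% of all tested genes), 1 higher and 5 lower in the preeclampsia group. DESeq2 called 2, Lrp4 and Notum, of the 83 to which it gave an adjusted p (2.41%, beside 1.71% of all genes). The groups did not overlap in CPM in 7 of the 78 (8.97%, beside 15.6% of all tested genes). The median log2 fold change of the 78 was -0.049, against 0.014 over all tested genes.

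Among Wnt ligands 8 of 19 genes were tested, 2 with a fold change above 0 and 6 below, with a median of -0.41. Wnt5a, a ligand known mainly for signalling without beta-catenin, was by far the most abundant, at 92.8, 176 and 152 FPKM in the control libraries and 153, 134 and 59.5 FPKM in the preeclampsia libraries. Its groups overlapped, with a log2 fold change of -0.26 (SE 0.38). Wnt4 was next, with means of 4.24 ± 3.90 and 2.78 ± 1.82 FPKM. Wnt2b and Wnt16, with the smallest p-values of the list, were below 1 FPKM in every library, with log2 fold changes of 1.10 (SE 0.57) and -1.16 (SE 1.22).

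Of the genes for secretion and removal of Wnt ligands, Wls, the carrier that takes them to the cell surface, was at 376 ± 85.2 and 354 ± 154 FPKM, Porcn, which adds their lipid, at 3.30 ± 1.00 and 4.35 ± 0.643 FPKM, and Tinagl1 at 6.73 ± 2.64 and 4.21 ± 0.538 FPKM. Notum, a secreted enzyme that removes that lipid and is itself a target of the pathway in several tissues, had 0 counts in each control library and 17, 28 and 8 counts in the preeclampsia libraries. Set against a floor of 3 counts per control library, Notum averaged 5.54-fold higher in the preeclampsia group, leaving out error in the preeclampsia counts. It was too low for the main filter; without the filter its adjusted p was 0.511 by edgeR, and it was 0.024 by DESeq2. Counts this low in the deposited table are uncertain, and none of the 3 preeclampsia libraries reached 0.2 FPKM.

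Among the receptors, 8 of 10 Frizzled genes were tested, 4 above and 4 below 0. In CPM 3 of them, Fzd1, Fzd3 and Fzd8, did not overlap between the groups, all lower in the preeclampsia group. This share of 37.5% stands beside 15.6% of all tested genes and 8.97% of the 78 pathway genes. It was the highest of 9 small lists, 5 of which had 0. Fzd1, the most abundant, was at 170, 157 and 162 FPKM in the control libraries and 138, 123 and 147 FPKM in the preeclampsia libraries, a log2 fold change of -0.24 (SE 0.13, adjusted p of 0.640 by edgeR). Fzd8 was at 10.2, 4.01 and 4.48 FPKM and at 2.13, 3.01 and 2.85 FPKM, lower in each preeclampsia library (log2 fold change -1.22, SE 0.42, adjusted p of 0.478 by edgeR). Fzd2 was at 33.4 ± 6.31 and 37.1 ± 5.12 FPKM and Fzd7 at 39.0 ± 17.8 and 22.7 ± 3.49 FPKM, both with overlap. Fzd3, named after its values were seen, was at 2.03, 2.60 and 3.01 FPKM and at 2.03, 1.67 and 1.93 FPKM (log2 fold change -0.42, SE 0.21, adjusted p of 0.625 by edgeR).

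All 8 co-receptor genes with a row were tested, 3 above and 5 below 0. Lrp4, a co-receptor that also binds the inhibitor sclerostin, stood at 2.52, 2.18 and 1.61 FPKM in the control libraries and at 0.88, 0.83 and 1.19 FPKM in the preeclampsia libraries. The groups did not overlap, and the log2 fold change was -1.11 (SE 0.26), with an adjusted p of 0.406 by edgeR and 0.020 by DESeq2. Ptk7, a receptor of planar cell polarity, was at 187, 215 and 218 FPKM and at 238, 353 and 293 FPKM, higher in each preeclampsia library (log2 fold change 0.54, SE 0.19, adjusted p of 0.478 by edgeR). Ryk, another Wnt receptor, was at 219 ± 13.8 and 195 ± 27.0 FPKM.

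R-spondins strengthen Wnt signalling by binding Lgr4, Lgr5 and Lgr6, and 7 of the 8 other genes of that axis were tested, 2 above and 5 below 0. Lgr4, the relative of Lgr5, was at 20.7, 28.1 and 27.7 FPKM in the control libraries and 21.6, 18.1 and 23.9 FPKM in the preeclampsia libraries, with a log2 fold change of -0.24 (SE 0.15, adjusted p of 0.711 by edgeR). Rspo1 was at 15.8 ± 4.95 and 19.0 ± 2.07 FPKM. Rspo4 was uneven in both groups, at 0.18, 1.49 and 0.55 FPKM and at 0.39, 4.01 and 4.65 FPKM, and Rspo3 exceeded 1 FPKM only in control library 1, at 3.26 FPKM.

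Of 10 further secreted or surface inhibitors 6 were tested, 4 above and 2 below 0, with a median of 0.53. Igfbp4, an IGF-binding protein that also blocks Frizzled and LRP6, was at 18.0, 27.0 and 6.96 FPKM in the control libraries and 37.4, 19.8 and 132 FPKM in the preeclampsia libraries. As with Sfrp1, preeclampsia library 3 held the highest value, but preeclampsia library 2 lay within the control range (log2 fold change 1.88, SE 0.81, adjusted p of 0.563 by edgeR). Tpbg, a surface protein that inhibits Wnt signalling through LRP6, was at 28.8 ± 5.26 and 37.9 ± 10.7 FPKM.

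All 16 genes of the cytoplasmic machinery were tested, 8 above and 8 below 0, with a median of -0.0018 and none at an unadjusted p under 0.05. The kinase gene Csnk1a1 was at 336 ± 2.23 and 351 ± 51.8 FPKM and the tankyrase gene Tnks2, whose product marks axins for destruction, at 153 ± 15.6 and 146 ± 19.6 FPKM. The smallest p-values were those of Ctnnbip1, an inhibitor of beta-catenin, at 2.66 ± 0.313 and 3.18 ± 0.409 FPKM, and Apc2, at 31.1 ± 25.2 and 16.2 ± 6.70 FPKM (log2 fold change -0.89, SE 0.67), with overlap in both.

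Of 12 TCF and LEF factors and cofactors, 7 were above and 5 below 0. Lef1 was at 5.89, 3.70 and 0.89 FPKM in the control libraries and at 0.78, 0.72 and 0.75 FPKM in the preeclampsia libraries. The preeclampsia libraries lay close together below control library 3, and the log2 fold change was -2.20 (SE 0.68, adjusted p of 0.470 by edgeR and 0.058 by DESeq2). Tcf7l1, mostly a repressor, was at 5.30 ± 0.899 and 8.65 ± 2.85 FPKM, with overlap. The cofactor genes Bcl9l and Pygo2 were at 23.2 ± 1.54 and 24.6 ± 4.45 FPKM and at 20.01 ± 2.36 and 21.7 ± 2.13 FPKM.

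Of 13 other genes known as beta-catenin targets in some tissues 10 were tested, 2 above and 8 below 0, with a median of -0.16; 2 of the 10 had an unadjusted p under 0.05, both lower, beside 9.19% of all tested genes in either direction. Ccn4, a matricellular gene first found as Wnt-induced, was at 222, 220 and 121 FPKM in the control libraries and 108, 119 and 94.5 FPKM in the preeclampsia libraries. In FPKM every preeclampsia library was below every control library, by a narrow margin, while in CPM they overlapped (log2 fold change -0.80, SE 0.27, adjusted p of 0.473 by edgeR). Bambi, a pseudoreceptor that dampens TGF-beta signalling, was at 5.34, 2.53 and 3.53 FPKM and at 1.69, 1.79 and 2.15 FPKM, lower in each preeclampsia library (log2 fold change -1.004, SE 0.33, adjusted p of 0.473 by edgeR). Ccnd1, the cyclin D1 gene, was at 125 ± 13.1 and 92.3 ± 39.8 FPKM.

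**Figure D4:**
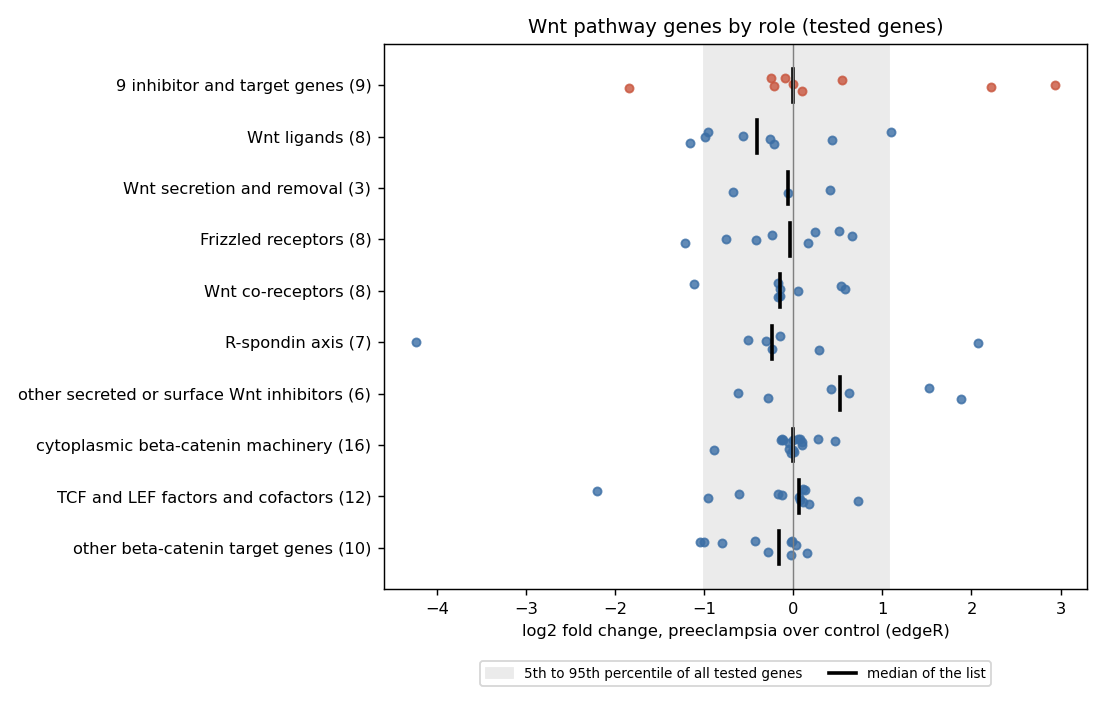
Log2 fold change of preeclampsia over control (horizontal axis, edgeR) for the tested genes of each role in the pathway, with the number tested in parentheses, the list's median as a black bar and the 5th to 95th percentile of all tested genes (-0.999 to 1.07) in grey. Sfrp1, Lgr5 and Dkk2, in the top row, lie outside that range, and the cytoplasmic machinery lies within it.

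The genes nearest in pattern to the 3 members with the smallest p were sought over the 6 libraries, by the root mean square difference of log2 CPM after centring each gene on its mean. For Sfrp1 these were Nr2f1, an orphan nuclear receptor gene, at a difference of 0.522, Sned1, an extracellular matrix gene, at 0.614, and Prr33 at 0.635, where the median over 10597 genes was 1.68. Sned1 stood at 166, 62.4 and 200 FPKM in the control libraries and at 294, 667 and 2581 FPKM in the preeclampsia libraries. For Lgr5 the nearest were Fmo4, at 0.413, Rrad, at 0.503, and Igfbp6, at 0.548 (median 1.26), and for Dkk2 Bves, at 0.517, Nupr1, at 0.563, and the skeletal actin gene Acta1, at 0.630 (median 1.40). With 6 libraries such nearness is a description of these samples.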

How the data were processed

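RNA was sequenced from 6 cultures of rat amniotic fluid cells, 3 per group by the sample titles. Libraries carried unique molecular identifiers, per the labels' protocols, whose use in counting is not stated. Tools listed in the submitters' processing notes are HISAT2 2.2.1, StringTie 2.1.6, cutadapt 1.9 and FastQC, with no settings. Per the file headers, the authors deposited FPKM values and whole-number counts for every gene in the 6 libraries. Among counts of 1 to 15, between 35.1% and 38.0% were multiples of 4, against 20% in an even spread, so low values may be coarser than single reads.

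The filterByExpr step left 15776 genes, which were TMM-scaled and fitted in edgeR 4.0.16 (R 4.3.3) by the quasi-likelihood test with group as the only term. Calls required a Benjamini-Hochberg adjusted p under 0.05 over those genes. The SE of a log2 fold change was its size divided by the square root of the F statistic. Log2 CPM used a prior count of 2. DESeq2 1.42.0, limma 3.58.1 on log2(FPKM + 1) or log2(FPKM + 0.1), RLE and upper quartile factors, an unfiltered fit, a block for replicate number and libraries left out were alternatives. Scripts were tested on counts simulated with the measured means and spread, where 50 genes each were changed 2-, 4-, 8- or 16-fold. Of these edgeR recovered 5, 32, 33 and 39, and it called 7 unchanged genes. DESeq2 recovered 19, 43, 40 and 43 but called 84 unchanged genes. In that setting its calls were thus less certain than their threshold states. The spread was drawn from edgeR's own estimates, and how far this carries over to the deposited counts was not tested. Each pair of libraries differed beyond sampling noise (chi-square per gene of at least 114).

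The 10 genes, 9 pathway lists and 7 marker lists were chosen with earlier results of these data known. Of each pathway list the text names the 2 genes with the highest mean FPKM and the 2 with the smallest p. For the 3 of the 10 genes with the smallest p it names the 3 genes nearest in pattern. Notum and the marker genes given with values, such as Pdgfra, Msln and Actg2, were named after their values were seen. Promoter sequences are from RefSeq, build GRCr8, matched by gene ID.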

Additional observations from a re-analysis of the deposited data

How the results depend on the processing

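By edgeR 0 genes were called, with 1450 at an unadjusted p under 0.05. DESeq2 called 302 genes, 2 of them among the 9 described and 2 among the other pathway genes. Unfiltered limma called 1 gene, fits with 1 library left out 0 to 2, and the fit without control library 3 and preeclampsia library 1 called 3, none of them a Wnt gene of these lists. Sfrp1 (2.103 to 3.96), Lgr5 (1.34 to 2.67) and Dkk2 (-2.98 to -0.26) kept their direction in each alternative that gave a value, the last limit being on the log2(FPKM + 1) scale. Frzb and Dkk2 had no value in the limma fits with a filter, and Frzb none without both of those libraries.

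Reversals concerned genes whose log2 fold change by edgeR over all 6 libraries was small against its SE, and the cause was not tested. The reversed values were not all small against theirs. Sfrp2 was at 2.01 (SE 0.74) without control library 3 and at 2.38 (SE 0.58) without that library and preeclampsia library 1. Sfrp2 was at 0.53 and 0.60 in limma with pseudocounts of 1 and 0.1 (0.53 unfiltered), and at 2.38 without control library 3 and preeclampsia library 1, where Sfrp4 was at 0.68. Axin2 was at 0.0086 in DESeq2, 0.0084 with RLE factors, and 0.0020 and 0.0094 in limma with those pseudocounts (0.0020 unfiltered). With 1 library left out, values ran from -0.96 to 2.01 for Sfrp2, -0.50 to 0.43 for Sfrp4, -2.00 to 0.58 for Frzb, -0.76 to 0.080 for Dkk3, -0.80 to 1.08 for Wif1 and -0.25 to 0.30 for Axin2.

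With the replicate number as a block, Sfrp2 was at 0.74, Wif1 at -0.043 and Axin2 at 0.023, and 0 genes were called. Sfrp1 was at 2.89 (SE 0.15, adjusted p of 0.257 by edgeR). Deviations of libraries with the same number correlated at 0.048, 0.041 and 0.010. Control libraries 1 and 2 correlated best with the preeclampsia library of their own number, and control library 3 with preeclampsia library 2 (0.035). These values were small and do not settle whether the libraries were paired. The labels do not say that the numbers pair libraries, so no pairing was assumed. The floor used for Notum covers counting error only. The SEs from edgeR include the spread between libraries, which, with 3 per group, set the precision.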

Other observations

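The length that the deposited counts and FPKM values imply (count divided by FPKM and by the library's total count) differed widely among the 9 genes. It was 374 bases for Sfrp2 and 704 bases for Lgr5, at the 3.72 and 9.02 percentiles of 10517 genes with at least 1 FPKM in every library, and 16733 bases for Wif1, at the 99.2 percentile, where the median gene was at 2743 bases. Levels of different genes therefore order differently by unit. Wif1 averaged 1.33 FPKM and 22.5 CPM in the control group, while Sfrp2 averaged 42.5 FPKM and 15.4 CPM there. Fold changes fitted to counts do not use this length, whereas those on the log2(FPKM + 1) scale depend on it through the pseudocount. They also depend on the level of the gene. Dkk2, at the 56.9 percentile of implied length, was at or below 0.47 FPKM in every library. On that scale, without a filter, Dkk2 was at -0.26, against -1.85 from counts.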
